A study of Bos taurus with 2 samples.

Results

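The genes described here are 10 transcription factor genes that set limb identity and limb axes in the embryo: *PITX1*, *TBX4*, *TBX5*, *TBX15*, *SHOX2*, *EN1*, *LMX1B*, *HAND2*, *MEIS1* and *MEIS2*. They are listed by name and are 10 of 21162 protein-coding genes placed on chromosomes 1 to 29 and X. CpG methylation was measured by whole-genome bisulfite sequencing (WGBS), in which a read reports at each CpG cytosine whether it was methylated. The 2 samples, bone sample 1 and bone sample 2, are both labelled as bone from female cattle of the Holstein breed, with no treatment or genotype, and form 1 group. The labels give neither the skeletal site nor the age, and do not say whether 1 or 2 animals were sampled, so the SD (n = 2) given below describes the spread between these samples only.

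In the vertebrate embryo, *PITX1* and *TBX4* act in the hindlimb bud and *TBX5* in the forelimb bud. *HAND2* acts in the posterior limb bud upstream of Sonic hedgehog, *EN1* in the ventral ectoderm, *LMX1B* in the dorsal mesenchyme, and *MEIS1*, *MEIS2* and *SHOX2* in the proximal limb, while *TBX15* is known for the growth of limb and girdle bones. Several of them remain active in adult connective tissue according to body position. Promoters of such genes usually lie in CpG islands, DNA stretches rich in CpG sites that stay low in methylation in most tissues, including tissues where the gene is silent, so a low level is not a measure of transcription.

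A methylation level is the sum of methylated calls over all calls of a region, in percent, with the calls of both strands added up. Over chromosomes 1 to 29 and X the level was 72.3% in sample 1 and 58.7% in sample 2, from 462047525 and 406703424 calls. Sample 1 was therefore higher over the genome, and a member's difference has to be read against that. Depth also differed by CpG content: start ends with at least 60 CpG sites had a median of 18.8 calls per CpG site in sample 1 and 6.66 in sample 2, and 97.9% of them were deeper in sample 1. Because the gene table at hand has no strand, the transcription start was taken to lie at the gene end with more CpG sites. This start end covers 1000 bp outside the gene and 500 bp inside it, and the number of CpG sites, not their methylation, decided which end was used.

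To test differences, methylated and unmethylated calls of both samples were set against each other in Fisher's exact test (two-sided), adjusted by Benjamini-Hochberg over all regions of the same kind, and called at an adjusted p under 0.05. The test compares 2 libraries: calls on 1 read are not independent, there are no molecular identifiers, and the 95% Wilson intervals cover counting error only. For this reason start ends, gene bodies and windows were also tested, where calls allowed, on CpG sites at least 300 bp apart, where a fragment seldom gives 2 calls.

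The start ends of the 10 genes were low in methylation in both samples. In 9 of 10 the level was under 20% in sample 1 and in sample 2, with *TBX4* as the exception, and the member medians were 6.55% in sample 1 and 4.81% in sample 2. Of all 20921 start ends tested, 51.1% were under 20% in both samples, and of those with at least 60 CpG sites 79.8% were. All 10 members but *SHOX2* had at least 60 sites, so low levels were also frequent among start ends of like CpG number.

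**Figure D1:**
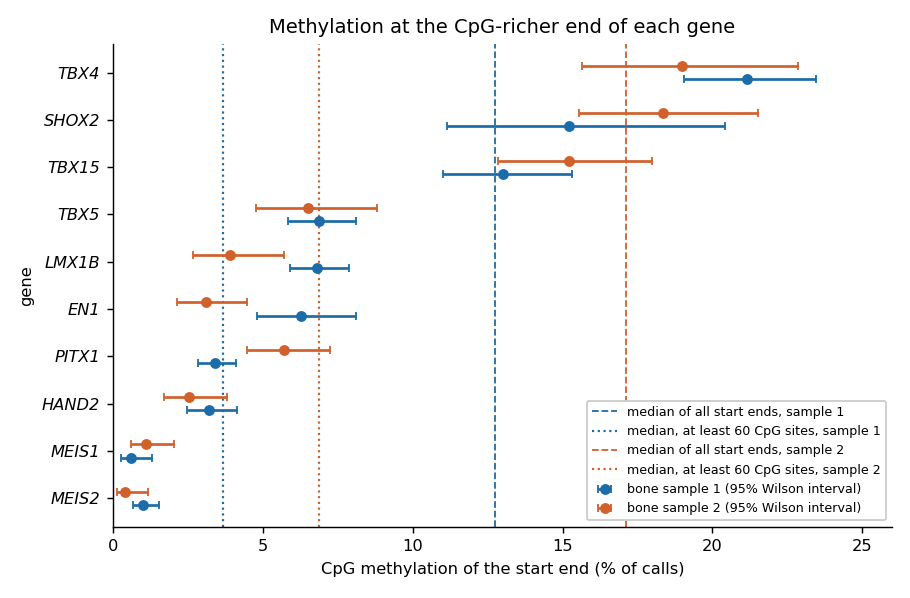
Methylation of the start end (percent of calls, horizontal axis) of the 10 genes in bone sample 1 (blue) and bone sample 2 (orange), with 95% Wilson intervals; dashed lines are the medians of all start ends (12.8% and 17.1%) and dotted lines those of start ends with at least 60 CpG sites (3.66% and 6.88%). *MEIS1* and *MEIS2* lie near 0 in both samples, and *TBX15*, *SHOX2* and *TBX4* lie apart at 13.0% to 21.2%.

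Of the hindlimb genes, *PITX1* on chromosome 7 encodes a homeodomain factor upstream of *TBX4*. Its start end held 176 CpG sites and measured 3.41% in sample 1 (95% interval 2.84 to 4.10, 3193 calls) and 5.70% in sample 2 (4.47 to 7.24, 1087 calls). The difference of -2.29 points, sample 1 minus sample 2, was called (adjusted p = 0.00243, Fisher's exact test). With sites 300 bp apart it was 0.784 points and no longer called, and with the start end widened to 2000 bp outside the gene it was 0.148 points, so neither its sign nor its call held in these 2 settings. At sites read 5 times or more in both samples the difference was -2.89 points and still called (adjusted p = 0.00144, Fisher's exact test).

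*TBX4* on chromosome 19, a T-box gene of hindlimb outgrowth, had the highest start end of the 10. It measured 21.2% in sample 1 (19 to 23.4, 1328 calls) and 19% in sample 2 (15.6 to 22.9, 453 calls), a mean of 20.1% ± 1.54 (SD, n = 2), and the difference was not called (adjusted p = 0.426, Fisher's exact test). The methylated part lay at the outer edge: of 40 sites read 5 times or more in both samples, 8 were at 50% or more in both, all at -959 to -470 bp from the gene end. Within 500 bp on either side of the gene end the mean level was 9.04%. Counted at sites read 5 times or more in both samples, *TBX4* differed by 9.60 points and was called (adjusted p = 0.00556, Fisher's exact test).

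The forelimb gene *TBX5* on chromosome 17, which switches on *FGF10* in the forelimb bud, lay between *PITX1* and *TBX4*. Its start end measured 6.89% in sample 1 (5.85 to 8.11, 1944 calls) and 6.52% in sample 2 (4.79 to 8.82, 583 calls), with intervals that overlap (adjusted p = 0.896, Fisher's exact test). Within 500 bp on either side of the gene end the difference was 3.40 points and was called (adjusted p = 0.0159, Fisher's exact test). Neither sample therefore had the hindlimb genes low and *TBX5* methylated, or the reverse.

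*TBX15* on chromosome 3 measured 13.0% in sample 1 and 15.2% in sample 2 (945 and 755 calls), which was not called (adjusted p = 0.270, Fisher's exact test). *SHOX2* on chromosome 1, needed for growth of the upper limb bones, measured 15.2% in sample 1 and 18.4% in sample 2 (230 and 643 calls; adjusted p = 0.390, Fisher's exact test). Together with *TBX4*, these genes formed the upper end of the 10 at the ends measured here, at means of 14.1% ± 1.57 for *TBX15* and 16.8% ± 2.22 for *SHOX2* (SD, n = 2). For *SHOX2* the end measured may not be the start, because a lower CpG-rich stretch lay inside the gene towards its other end. Its place among the 10 therefore depends on the end used. The Wilson intervals of *SHOX2* overlap those of *TBX15* and of *TBX4* in each sample, while *TBX15* (11 to 15.3) and *TBX4* (19 to 23.4) do not overlap in sample 1.

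Of the genes of the dorsal and ventral limb, *EN1* on chromosome 2 measured 6.27% in sample 1 (4.83 to 8.11, 845 calls) and 3.11% in sample 2 (2.14 to 4.48, 869 calls), which was called (adjusted p = 0.00372, Fisher's exact test). *LMX1B* on chromosome 11 measured 6.83% in sample 1 (5.91 to 7.88, 2504 calls) and 3.92% in sample 2 (2.67 to 5.72, 638 calls), also called (adjusted p = 0.0103, Fisher's exact test). Both were higher in sample 1, as the genome as a whole was. Start ends of like CpG number, with at least 60 sites, were more often called the other way: 14.2 percent higher in sample 1 and 39.7 percent in sample 2. With sites 300 bp apart and so fewer calls, neither was called: *EN1* differed by 1.85 points (adjusted p = 1.0) and *LMX1B* by 8.67 points (adjusted p = 0.551, Fisher's exact test), more than with all sites.

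*HAND2* on chromosome 8 measured 3.20% in sample 1 and 2.55% in sample 2 (1718 and 902 calls), not called (adjusted p = 0.480, Fisher's exact test). From 2000 bp outside the gene it differed by 4.29 points and was called (adjusted p = 3.63e-08, Fisher's exact test). Another gene, *LOC781304*, lies 0.136 kb outside that end, so the added stretch is not that of *HAND2* alone. The MEIS genes, whose products pair with PBX proteins on DNA, were the lowest of the 10 by mean level. *MEIS1* on chromosome 11 measured 0.609% in sample 1 and 1.12% in sample 2 (985 and 895 calls), and *MEIS2* on chromosome 10 measured 1.02% in sample 1 and 0.40% in sample 2 (2060 and 750 calls), neither of them called (adjusted p = 0.392 and 0.219, Fisher's exact test). At *MEIS1*, 69 of 83 sites read 5 times or more in both samples had no methylated call in either. By mean level *MEIS2* stood above 7.37% of all start ends and *MEIS1* above 9.31%.

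In all, 3 of 10 start ends were called, 2 higher in sample 1 and 1 higher in sample 2, and the largest difference was 3.17 points. Among all start ends 63.8 percent were called, 37.0 percent higher in sample 1 and 26.9 percent higher in sample 2, and among those with at least 60 CpG sites 14.2 percent were called higher in sample 1 and 39.7 percent higher in sample 2. With sites 300 bp apart 0 of the 9 members that could be tested were called, against 18.3 percent of all start ends, and by the same Fisher's exact test 0 had an unadjusted p under 0.05. Against an odds ratio of 1.84, that of the whole genome, rather than 1, 6 of the 10 were called, all less raised in sample 1 than the genome, against 60.8 percent of all start ends called in either direction. Of the 10, 8 were read more deeply in sample 1, *SHOX2* and *EN1* being the exceptions.

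The mean over CpG sites, which gives every site the same weight whatever its depth, left the start ends low as well. At sites read 5 times or more in both samples it ranged from 0.595% (*MEIS1*) to 19.5% (*TBX4*) in sample 1 and from 0.517% (*MEIS2*) to 19.8% (*SHOX2*) in sample 2. *PITX1* was again lower in sample 1 on this measure, at 4.50% and 7.12%, and *EN1* and *LMX1B* were again higher, at 7.38% and 4.63% for *EN1* and 12.8% and 6.76% for *LMX1B*.

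The end of each gene with fewer CpG sites was measured the same way, since the table does not say which end is the start. *TBX4*, *TBX5*, *TBX15*, *LMX1B*, *MEIS1* and *MEIS2* were methylated there, at 77.8% to 90.3% in sample 1 and 61.8% to 71.8% in sample 2. The others were not: *PITX1* measured 21.2% and 15.9%, *EN1* 25.9% and 20.6%, *HAND2* 15.5% and 23.3%, and *SHOX2* 12.8% and 29.6% (47 and 267 calls). These 4 genes are short, from 3090 to 12271 bp, and were low or intermediate at both ends. All 10 were called at that end, 8 higher in sample 1 and 2 (*SHOX2*, *HAND2*) higher in sample 2, against 73.4 percent and 3.03 percent of all such ends.

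How far the low methylation reaches was followed in 1 kb windows within 20 kb of the start end. Of 400 windows, 372 reached 20 calls in both samples, and 101 of these were under 20% in both. Of all 2189146 windows tested, 1.5% were under 20% in both, but members' windows are rich in CpG sites. With 40 to 59 sites 65.2% of member windows and 20% of all windows were under 20% in both, and with 60 or more 83.0% and 67.5%. Windows under 20% in 1 sample only were fewer, 12 in sample 1 and 21 in sample 2, and the highest count of such windows for 1 gene was 8 at *EN1*.

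**Figure D2:**
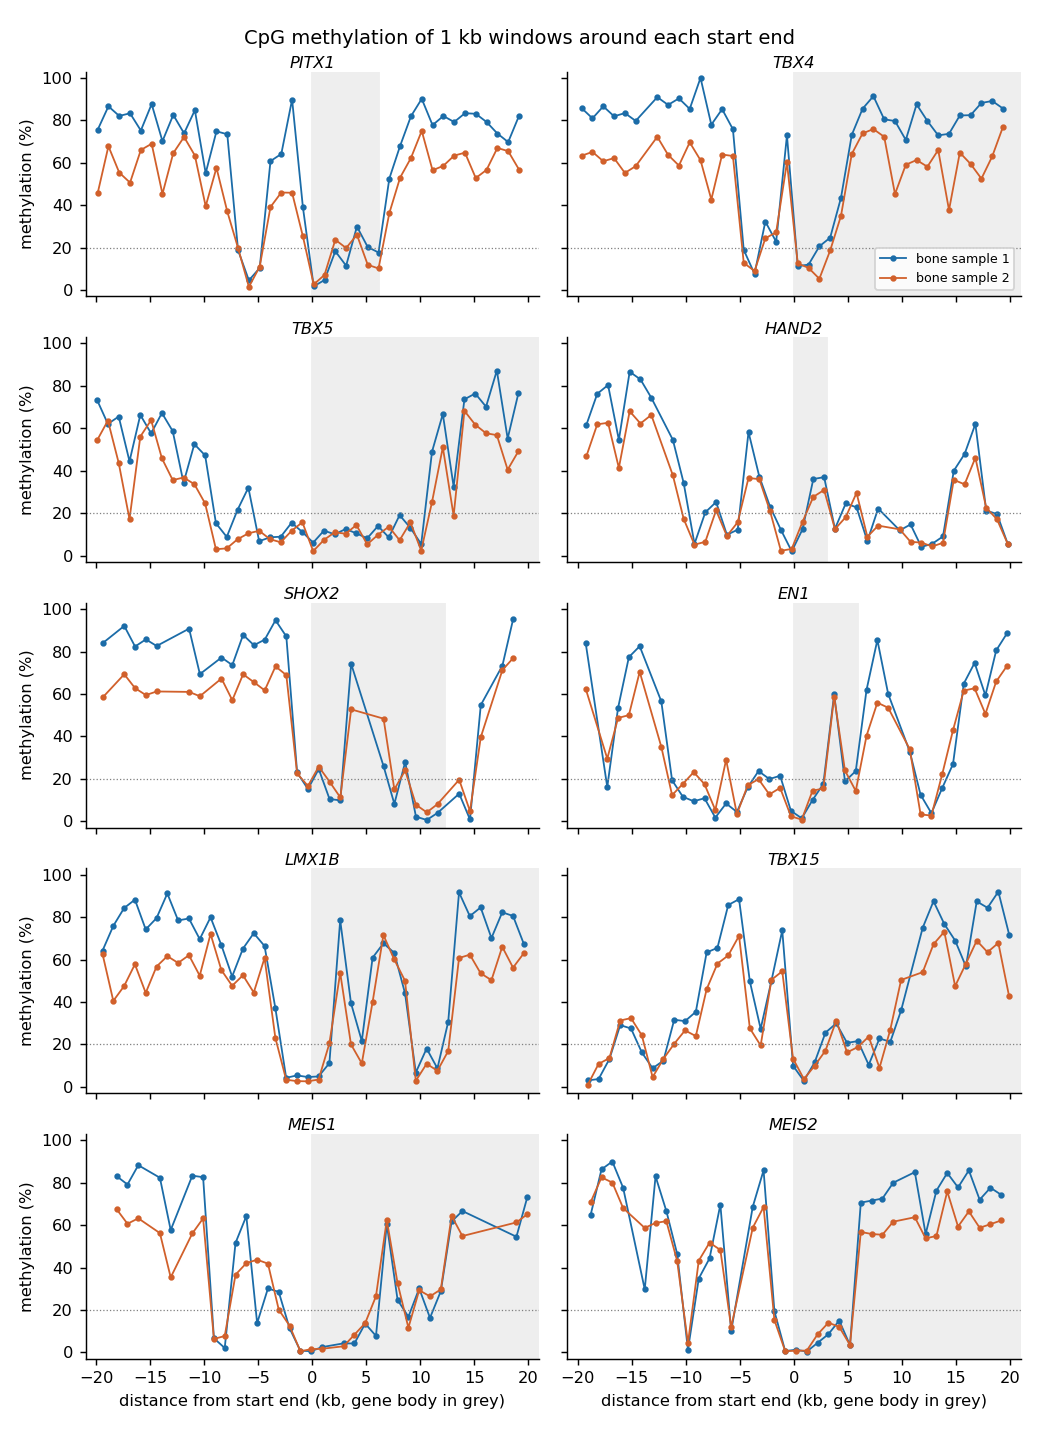
Methylation (percent of calls, vertical axis) of 1 kb windows by distance from the start end (kb, negative outside the gene; gene body in grey) in bone sample 1 (blue) and bone sample 2 (orange); the dotted line is 20%. Both samples fall and rise at mostly the same places around each gene, with sample 1 mostly above sample 2 where levels are high.

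Around *TBX5* the low methylation was the longest of the 10. A run of windows under 20% was followed until a window at or above 20%, crossing up to 2 successive windows with too few calls. At *TBX5* the run measured 16.0 kb in sample 1 and 20 kb in sample 2, a mean of 18.0 kb ± 2.83 (SD, n = 2). This ranked 7 among 20627 genes, and 0.0339% of genes had a run at least as long. In sample 1 it ended outside the gene at windows of 32.0% and 21.6% (at -5.93 and -6.93 kb), where sample 2 measured 10.5% and 7.71%. Both samples left the run within the gene at 11.1 kb, where the level was 49.0% and 25.3%. The run is shallow rather than empty: counted with windows under 10% it was 1.0 kb and 2.0 kb, and with 500 bp windows under 20% 8.5 kb and 9.5 kb. The nearest gene outside that end is *TBX3*, another T-box gene, 165 kb away.

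*MEIS1* and *MEIS2* had the next longest runs by the mean of both samples, 9.0 and 8.0 kb for *MEIS1* and 8.0 kb in each sample for *MEIS2*, and they were deeper. Counted with windows under 10%, they still measured 6.0 kb in each sample at *MEIS1*, and 5.0 and 4.0 kb at *MEIS2*. At *MEIS2* the run ended sharply, from 3.41% and 3.51% in the window at 5.19 kb to 70.6% and 56.8% in the next.

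*EN1* had a run of 4.0 kb in sample 1 and 9.0 kb in sample 2. The window that ended it in sample 1, at -1.27 kb, measured 21.4% in sample 1 and 15.7% in sample 2, close to the threshold on both sides, and counted with windows under 30% both samples had 15.0 kb. *LMX1B* had 5.0 and 4.0 kb, *PITX1* 4.0 and 2.0 kb, *TBX15* 3.0 and 4.0 kb, *TBX4* 2.0 and 4.0 kb, *HAND2* 3.0 kb in each sample and *SHOX2* 1.0 kb in each sample. For *SHOX2* the end measured may not be the start, so its short run may not be that of its promoter. At its other end the run could not be measured in sample 1 and was 0 kb in sample 2, although low windows lay inside the gene near that end, as given below. The member median was 4.0 kb in each sample, and that of genes with at least 60 CpG sites at the start end was 2.0 kb.

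**Figure D3:**
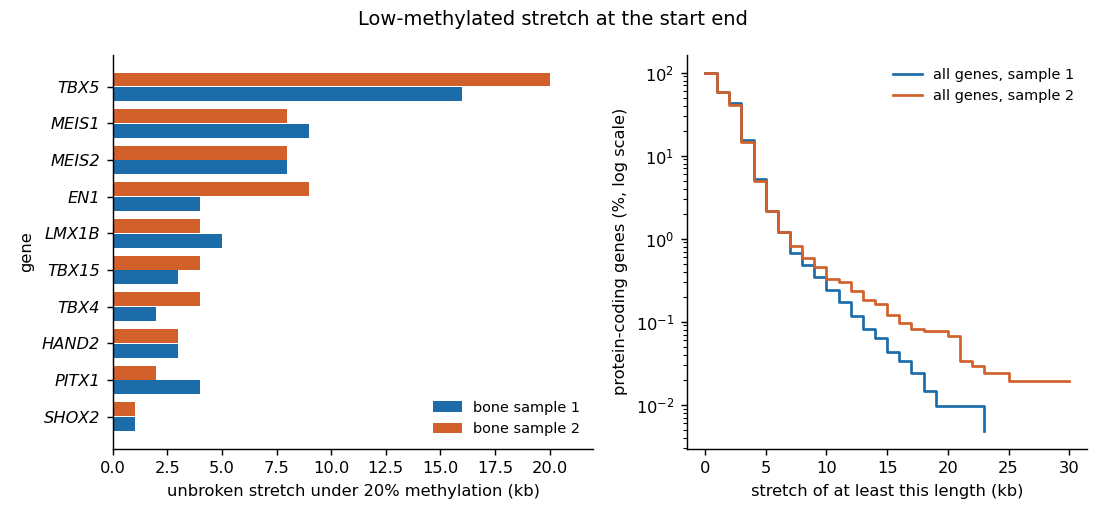
Left, length (kb) of the run of 1 kb windows under 20% methylation at the start end of each of the 10 genes, bone sample 1 in blue and bone sample 2 in orange. Runs cross up to 2 successive windows with too few calls. Right, share of protein-coding genes (percent, log scale) with a run of at least the given length. *TBX5*, at 16.0 and 20 kb, is the longest of the 10, and runs of at least 10 kb were seen in 0.242% of genes in sample 1 and 0.325% in sample 2.

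Further low stretches lay outside the run at the start end. Outside *PITX1*, a window of 102 CpG sites at -5.88 kb measured 4.55% in sample 1 and 1.45% in sample 2. Outside *TBX4*, a window of 70 sites at -3.64 kb measured 7.59% and 8.93%, and outside *TBX15* a window of 58 sites at -19.1 kb measured 3.02% and 0.983%.

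Low windows away from the start end were also seen at 6 further genes. *MEIS1* had a low window at -9.11 kb (6.68% and 6.35%) and *MEIS2* at -9.81 kb (1.24% and 4.33%), *LMX1B* one inside the gene at 9.57 kb (6.73% and 2.84%), and *EN1* one past the gene at 12.7 kb (3.80% and 2.64%). At *HAND2*, windows of 61 sites at -9.20 kb (5.51% and 5.14%) and of 102 sites at 19.8 kb (5.45% and 5.45%) were low in both samples. Other genes lie 0.136 kb outside and 7.19 kb past *HAND2*, so these windows may belong to them. At *SHOX2*, a stretch inside the gene towards its other end held 71 sites at 9.59 kb (2.14% and 7.75%), 55 at 10.6 kb (0.576% and 4.17%) and 37 at 11.6 kb (3.92% and 8.09%), all lower than its start end, and whether transcription starts there is not given by the gene table. These windows were chosen because they were low.

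Of the 372 windows, 202 were called, 172 higher in sample 1 and 30 higher in sample 2. Among all windows 64.8 percent were called higher in sample 1 and 0.977 percent higher in sample 2. The members' windows hold more CpG sites than most: 99 of them had at least 40, of which 26 were called higher in sample 1 and 19 higher in sample 2, against 54.5 percent and 10.4 percent of all windows with as many sites. With sites 300 bp apart 28 of 232 member windows were called higher in sample 1 and 4 higher in sample 2, against 23.7 percent and 0.519 percent of all windows. Against the genome-wide odds ratio 128 of the 372 were called in either direction, compared with 20.5 percent of all windows.

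The size of the difference followed CpG number. In member windows with 1 to 9 sites the median difference, sample 1 minus sample 2, was 16.9 points, and in those with 10 to 19 sites 17.2 points, near the 17.2 and 17.1 points of all windows. With 20 to 39 sites it was 5.84 points in member windows and 16.4 points in all windows, and with 40 to 59 sites 1.08 and 11.8 points. Member windows of these middle classes were also lower in level: with 20 to 39 sites their median was 28.2% in sample 1 and 24.3% in sample 2, against 82.1% and 63.1% in all windows. At 60 sites or more members and all windows were alike, at 0.374 and 0.344 points.

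**Figure D4:**
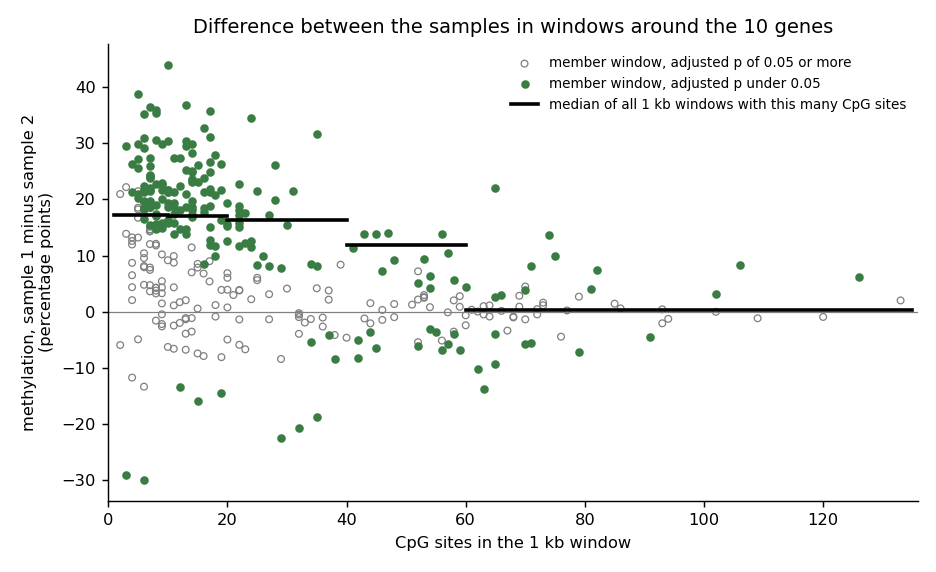
Difference in methylation (percentage points, sample 1 minus sample 2, vertical axis) of the 372 tested windows around the 10 genes by the number of CpG sites in the window; filled points had an adjusted p under 0.05, open points had not, and black bars are the medians of all 1 kb windows of that CpG number. Member windows with few CpG sites lie around the bars at 17.2 and 17.1 points, and those with 20 to 59 sites mostly lie below theirs.

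By gene, the median difference over its windows was 16.7 points at *PITX1*, 15.8 at *TBX4*, 13.9 at *LMX1B*, 10.4 at *SHOX2*, 7.83 at *TBX5*, 6.76 at *MEIS2*, 5.17 at *HAND2*, 4.36 at *TBX15*, 3.30 at *EN1* and 0.557 at *MEIS1*. Across the windows of 1 gene the levels of both samples went together, with a Pearson r from 0.914 (*MEIS1*, 32 windows) to 0.971 (*HAND2*, 38 windows), against 0.760 over all windows. These coefficients are descriptions: neighbouring windows share reads, and CpG-rich and CpG-poor windows around 1 gene differ in level in any tissue.

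The largest difference at a member was at *PITX1*. A window of 10 CpG sites at -1.88 kb (chromosome 7, 46482001 to 46483000 in the coordinates of the deposited counts) measured 89.8% in sample 1 (83.6 to 93.8, 137 calls) and 45.8% in sample 2 (37.2 to 54.7, 120 calls), with an adjusted p of 4.19e-13 (Fisher's exact test). The intervals lie far apart, the call remained with sites 300 bp apart (adjusted p = 0.0136) and against the genome-wide odds ratio (adjusted p = 1.62e-06, both exact tests), and the mean over its 10 sites was 91.2% and 46.2%. Of the 40 *PITX1* windows 28 (70.0%) were called higher in sample 1, near the 64.8 percent of all windows.

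At *TBX4*, 29 of 39 windows were called higher in sample 1 (74.4%, beside 64.8 percent of all windows) and 0 higher in sample 2 (beside 0.977 percent). Its largest difference was at -8.64 kb, with 100% in sample 1 (37 calls) and 61.2% in sample 2 (85 calls; adjusted p = 4.98e-06, Fisher's exact test). *TBX5* had its largest within the gene at 17.1 kb, with 87.2% and 56.8% (47 and 162 calls; adjusted p = 0.000353, and 0.0976 against the genome-wide odds ratio, exact tests). *LMX1B* measured 84.3% and 47.5% at -17.4 kb (89 and 259 calls; adjusted p = 6.59e-09, exact test), but 90.4% and 71.8% as a mean over 5 sites.

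For the remaining genes the largest difference towards sample 1 was smaller. It was 29.8 points at *SHOX2* (90.8% and 61.0%), 29.6 at *EN1* (85.5% and 55.9%), 29.2 at *TBX15* (71.8% and 42.6%), 27.2 at *MEIS1* (83.3% and 56.1%), 22 at *MEIS2* (83.0% and 61.1%) and 21.7 at *HAND2* (58.2% and 36.6%). All 6 windows held 3 to 10 CpG sites, lay away from the start end and were called, with adjusted p from 3.09e-05 to 0.0118 (Fisher's exact test). Against the genome-wide odds ratio *SHOX2* was called (adjusted p = 0.0292) and the other 5 were not (adjusted p from 0.231 to 0.575, exact tests). With sites 300 bp apart *SHOX2* was called (adjusted p = 0.00673), *EN1* and *TBX15* were not (adjusted p = 0.0761 and 0.138, exact tests), and the remaining genes had too few calls, at differences of 27.8 points at *MEIS2*, 9.13 at *HAND2* and 2.10 at *MEIS1*; too few calls were also left at *TBX4*, *TBX5* and *LMX1B*.

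Windows higher in sample 2, against the trend of the genome, were spread over 9 of the 10 genes, with 8 at *EN1* and 7 at *SHOX2*. These were 21.6% and 22.6% of their tested windows, beside 0.977 percent of all windows. Among windows with at least 40 sites, 5 of 15 at *EN1* and 5 of 7 at *SHOX2* were called higher in sample 2, beside 10.4 percent of all such windows. With sites 300 bp apart 0 windows were called higher in sample 2 at *EN1* and 1 at *SHOX2*. The largest at *EN1* was a window of 32 sites at -6.27 kb (chromosome 2, 70621001 to 70622000), at 8.36% in sample 1 (5.64 to 12.2, 275 calls) and 29% in sample 2 (23.8 to 34.8, 259 calls; adjusted p = 8.07e-09, Fisher's exact test). Its mean over 11 sites was 4.89% and 27.8%, and with sites 300 bp apart the adjusted p was 0.0874. A second *EN1* window at -9.27 kb measured 9.41% and 23.1% (1265 and 506 calls; adjusted p = 6.05e-12; 0.129 with sites 300 bp apart, exact tests).

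*MEIS1* had 4 such windows. The largest difference, at -5.11 kb, was 13.8% in sample 1 and 43.7% in sample 2 (29 and 167 calls; adjusted p = 0.00415, and 0.0326 with sites 300 bp apart, Fisher's exact test), but only 1 of its 6 sites was read 5 times or more in both samples and that site was higher in sample 1. A window of 35 sites inside the gene at 5.89 kb measured 7.78% and 26.5% (270 and 249 calls; adjusted p = 8.17e-08, exact test). *MEIS2* measured 29.7% and 58.7% at -13.8 kb from 37 and 46 calls on 3 sites (adjusted p = 0.0241, exact test), but with sites 300 bp apart the difference turned to 5.45 points, with too few calls for a test.

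The direction turned with the weighting of sites in 3 of the 8 windows called higher in sample 2 at *EN1*. The same held for 2 of 7 at *SHOX2* and 1 of 4 at *MEIS1*. At *SHOX2* the size could change as well. A window of 29 sites at 6.59 kb (chromosome 1, 109421001 to 109422000) measured 26% in sample 1 and 48.3% in sample 2 (778 and 242 calls; adjusted p = 2.14e-09, Fisher's exact test), but 38.6% and 48.5% as a mean over 16 sites, and the call was lost with sites 300 bp apart (adjusted p = 0.279). A window of 71 sites at 9.59 kb measured 2.14% and 7.75% by calls and 4.24% and 3.19% by sites. Of the 30 windows called higher in sample 2, 24 kept that direction in the mean over sites and 6 did not, and their median difference went from -6.83 to -4.34 points. Of the 172 called higher in sample 1, 171 kept it.

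The largest windows of the other genes in this direction differed by less. *TBX15* measured 36.0% and 50.4% at 9.92 kb (adjusted p = 0.00657), *LMX1B* 11.2% and 20.45% at 1.57 kb (adjusted p = 4.95e-07), *PITX1* 11.4% and 19.8% at 3.12 kb (adjusted p = 0.000411), *HAND2* 22.7% and 29.6% at 5.80 kb (adjusted p = 0.0171) and *TBX5* 8.59% and 13.6% at 7.07 kb (adjusted p = 0.0109, all Fisher's exact test). None of the 4 that could be tested with sites 300 bp apart was called there (adjusted p from 0.227 to 1.0), and *LMX1B* had too few calls for it. As a mean over sites the difference was -3.67 points at *TBX15* (-14.4 by calls) and -3.96 at *LMX1B* (-9.30 by calls).

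Over whole gene bodies the 10 genes fell into long methylated and short low ones. By calls, the bodies of *MEIS2* (72.1% and 59.2%), *TBX4* (69.3% and 52.4%), *LMX1B* (59.6% and 43.2%), *MEIS1* (59.6% and 51.3%), *TBX15* (54.3% and 50.8%) and *TBX5* (42.2% and 36.5%) were higher in sample 1. *PITX1* was low in both samples, at 14.3% and 12.4%. *SHOX2* (9.71% and 20%), *HAND2* (12.7% and 22.7%) and *EN1* (11.9% and 15.4%) were low and higher in sample 2. All 10 were called, 7 higher in sample 1 and 3 higher in sample 2, against 76.6 percent and 14.4 percent of all bodies.

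The 3 bodies that were higher in sample 2 depended on how sites were weighted. As a mean over sites read 5 times or more in both samples, *SHOX2* measured 13.0% and 13.9%, *EN1* 17.8% and 15.6%, and *HAND2* 24.7% and 23.2%, so the difference shrank at *SHOX2* and turned at *EN1* and *HAND2*. At *SHOX2* the body had 22.7 calls per site in sample 1 and 10.8 in sample 2, and the part of depth in this result was not tested. With sites 300 bp apart *PITX1*, *EN1* and *HAND2* were not called, at differences of 4.10, -6.67 and -10.2 points that were no smaller than with all sites, and 7 were, against 81.0 percent of all bodies; *SHOX2* was still called at -18.7 points (adjusted p = 1.67e-10, Fisher's exact test). The other 7 bodies were higher in sample 1 by calls and by sites.

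**Figure D5:**
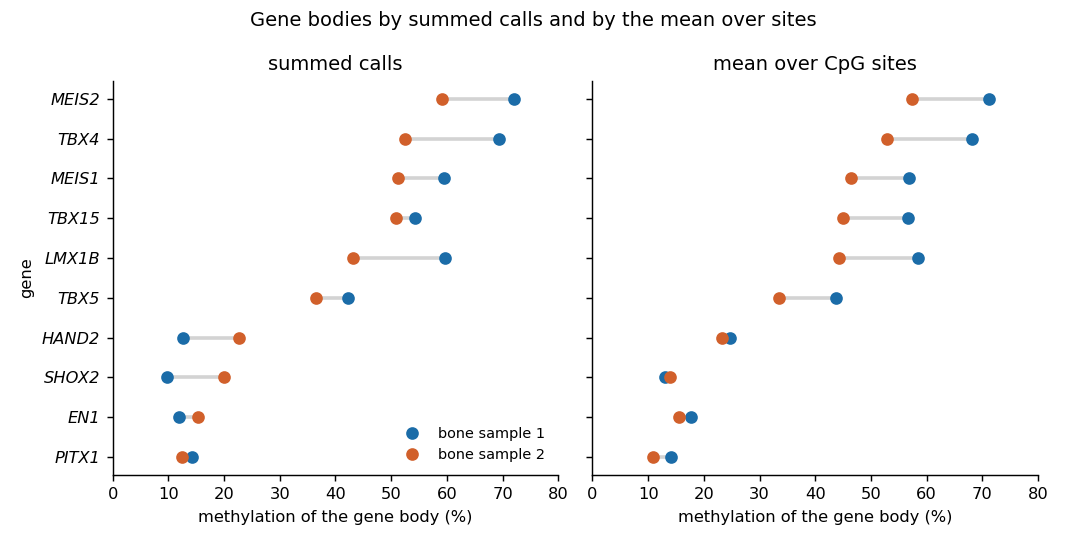
Methylation of the gene body (percent, horizontal axis) of the 10 genes in bone sample 1 (blue) and bone sample 2 (orange), by summed calls (left) and as the mean over CpG sites read 5 times or more in both samples (right). *SHOX2*, *HAND2* and *EN1* are higher in sample 2 on the left, while on the right *SHOX2* differs by -0.86 points and the other two are higher in sample 1.

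Other genes were measured at the start end from 4 lists: limb bud genes, the closest relatives of the members, and genes of the skeleton outside the limb, axial as well as face and skull. Counts over all 4 lists therefore mix genes that act in the limb with genes of other skeletal parts. Of 66 genes matched, 57 were under 20% in both samples, and the medians were 4.17% and 4.39%, against 3.66% and 6.88% for start ends with at least 60 CpG sites, of which 79.8% were under 20% in both. Of these 66, 32 were called, 10 higher in sample 1 and 22 higher in sample 2. The shares were 14.2 and 39.7 percent among such CpG-rich start ends, and 37.0 and 26.9 percent among all start ends. Not all of the 66 genes hold 60 CpG sites, so both pairs of shares stand beside the counts of each list that follows. With sites 300 bp apart 7 of 53 were called, beside 18.3 percent of all start ends. At sites read 5 times or more in both samples 21 were called, 12 higher in sample 1 and 9 higher in sample 2, so the larger direction turned. Calls over all start ends shifted the same way: 57.9% of them were higher in sample 1 with all sites and 67.9% in this setting.

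The limb bud list (35 genes matched) held 33 genes under 20% in both samples, and 17 were called, 4 higher in sample 1 and 13 higher in sample 2. *WNT5A*, a signal for limb outgrowth, was the lowest at 0.860% and 0.224%. *RSPO2*, a Wnt agonist needed for limb outgrowth, was the highest at 95.1% and 53.2%, with 15 CpG sites at its CpG-richer end. At that end it also had the largest difference of all 4 lists (adjusted p = 1.12e-18, Fisher's exact test). With so few sites this end may not be the start, and the other end of *RSPO2* measured 58.3% and 54.2%.

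Among the closest relatives of the members, 11 of 15 were under 20% in both samples and 9 were called, 5 higher in sample 1 and 4 higher in sample 2. *PBX3*, whose product is a MEIS partner, was near 0 at 0.483% and 0.875%. *PBX4* (87.3% and 72.0%), *PBX2* (28.5% and 52.7%) and *TBX22* (35.4% and 25.0%) were the highest, with 31, 21 and 32 CpG sites. With so few sites the end used may not be the start. At the other end *PBX4* was lower (40.5% and 41.4%), while *PBX2* (85.7% and 68.7%) and *TBX22* (55.3% and 34.2%) were higher. *PKNOX2*, a relative of the MEIS genes, measured 8.36% in sample 1 and 38.9% in sample 2 (adjusted p = 4.66e-16, Fisher's exact test). That end of *PKNOX2* held 35 CpG sites, and its other end measured 24.9% and 27.7%.

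Of the skeleton outside the limb, the axial list had medians of 7.91% and 8.52% and the face and skull list of 5.66% and 6.58%. Of the axial list, 5 of 8 were under 20% in both samples and 4 were called, 1 higher in sample 1 and 3 higher in sample 2, and of the face and skull list 8 of 8 were under 20%, with 2 called, both higher in sample 2. *MEOX1*, a somite gene, measured 77.7% and 47.5% with 30 CpG sites, so that end may not be the start, and 68.9% and 36.7% at its other end. *TCF15*, also a somite gene, measured 12.8% in sample 1 (3204 calls) and 36.8% in sample 2 (340 calls, adjusted p = 4.21e-24, Fisher's exact test). *TCF15* had 26 calls per site in sample 1 and 2.76 in sample 2, and whether that depth bears on its difference was not tested.

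The label of the tissue was set beside marker genes, measured at the CpG-richer end. Of 7 osteoblast markers tested, *SP7* (2.04% and 10.2%), *COL1A1* (12.7% and 17.3%) and *COL1A2* (11.6% and 5.49%) were under 20% in both samples, while the other 4, *RUNX2* (87% and 60%, 15 CpG sites), *BGLAP* (87.3% and 56.5%), *ALPL* (72.9% and 54.1%) and *SPP1* (46% and 49.2%), were not in either. Under 20% in both were also 0 of 5 osteocyte, 2 of 4 osteoclast, 3 of 4 cartilage, 1 of 6 white blood cell, 0 of 4 red blood cell lineage, 0 of 4 fat cell, 2 of 4 muscle and 0 of 3 endothelium markers. The white blood cell markers ran from 5.0% and 6.54% (*LCP1*) to 85.8% and 69.0% (*CD3E*), with *PTPRC*, expressed across white blood cells, at 34.3% and 42.1%. These levels neither single out bone nor give the share of any cell type, and for genes with few CpG sites the end chosen may not be the start. At the other end *CD3E* (17.0% and 13.7%) and the endothelium marker *PECAM1* (19.3% and 17.0%) were under 20% in both samples. By contrast, *SPP1* (83.8% and 62.4%) was higher there, so the counts above depend on the end chosen.

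Whether both samples come from 1 anatomical site was asked of the 10 genes. At the start end no member was under 20% in one sample and methylated in the other: the widest gap was the 3.17 points of *EN1*, and *TBX4*, at 21.2% and 19%, straddled the threshold within overlapping intervals. Other settings gave wider gaps, among them 9.60 points at *TBX4* for sites read 5 times or more, 8.67 at *LMX1B*, 7.59 at *TBX15* and 7.27 at *TBX4* with sites 300 bp apart, and -7.17 at *SHOX2* for sites read 5 times or more. At the gene end with fewer CpG sites gaps reached 27.6 points at *MEIS1*, 24.5 at *TBX4* and -16.8 at *SHOX2*. There *SHOX2* (12.8% and 29.6%), *HAND2* (15.5% and 23.3%) and *PITX1* (21.2% and 15.9%) were under 20% in 1 sample only. Larger differences at members were in windows away from the start ends, the largest at *PITX1*. No sample of a known skeletal site was analysed here, and so whether the samples share a site was not tested.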

How the data were processed

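WGBS was done on 2 bone samples. The authors trimmed reads, aligned them by Bismark and took out duplicates, and the deposited counts give, for every CpG cytosine, how many calls were methylated and how many were not, without normalization. The submitters' processing notes name FastQC 0.11.5, Trim Galore 0.4.5, Bowtie2, Bismark 0.19.0 and the build ARS-UCD1.2, while the study's methods name UMD3.1.1 and other versions. Depth was 582241763 and 440334436 calls.

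Strands were merged. Genes were placed with RefSeq's ARS-UCD2.0 table, which has no strand, and no coordinates of it are printed. CpG sites around all gene ends within 5 Mb of each member were densest at the gene end itself, in steps of 500 bp up to 10 kb, for all 10 members. The planned promoters needed known starts, so the CpG-richer gene end was used instead, and the other end was added as an alternative after the data were seen. No sequences were printed because no genome was at hand. Regions needed at least 20 calls in each sample.

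Levels were compared by Fisher's exact test with Benjamini-Hochberg adjustment over all regions of a kind. The test was run on simulated data with independent calls, which does not cover calls that share a read. Alternatives changed the window, depth minimum, spacing, odds ratio and weighting. Members and lists were chosen with earlier results of these data known. Named are all members, each member's largest called window in each direction, and of the lists the 5 highest, the 3 lowest and the 5 largest called differences, of which 1 gene is not reported here; the further low stretches, the second windows of *EN1*, *SHOX2* and *MEIS1*, and the marker genes named were picked after their values were seen. Tools were scipy 1.17.1, numpy 2.4.6, numba 0.67.0 and pandas 2.3.3 under Python 3.11.15, with plots by matplotlib 3.10.9.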

Additional observations from a re-analysis of the deposited data

How the results depend on the processing

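No paired analysis was possible because both samples belong to 1 group, and leaving out either sample leaves no difference to test. The mean level of the members' start ends, 5.68% as the median of 10, was 4.13% within 500 bp of the gene end, 9.76% from 2000 bp outside, 6.99% at sites read 5 times or more in both samples, 7.86% as a mean over sites and 70.1% at the other gene end. The 3 start ends called became 0 with sites 300 bp apart, 6 against the genome-wide odds ratio, 0 if at least 20 points were asked for and 10 at the other end; within 500 bp and from 2000 bp outside there were again 3, all higher in sample 1, with *PITX1* not called, *TBX5* called only within 500 bp and *HAND2* only from 2000 bp, and at sites read 5 times or more *TBX4* was called and *EN1* was not; the start end of *PITX1* turned to 0.148 points from 2000 bp outside and 0.784 points with spaced sites. Of all start ends 13352 were called, 8548 within 500 bp, 3515 with spaced sites and 3235 with at least 20 points; against the genome-wide odds ratio the calls split into 3079 relatively higher in sample 1 and 9632 in sample 2, compared with 7731 and 5621. The 32 genes called from the lists became 21 within 500 bp, 21 at sites read 5 times or more, 7 with spaced sites and 6 with at least 20 points. Against the genome-wide odds ratio 40 of the list genes were called, 4 relatively higher in sample 1 and 36 in sample 2. With at least 20 points 0 of the 10 bodies remained called, and against the genome-wide odds ratio 9 were, 2 relatively higher in sample 1 and 7 in sample 2; as means over sites the bodies of *EN1* and *HAND2* turned to 2.20 and 1.55 points. The 202 member windows called became 32 with spaced sites, 128 against the genome-wide odds ratio (37 relatively higher in sample 1 and 91 in sample 2) and 83 with at least 20 points. No share over all bodies is given for the 20-point or the odds ratio setting, and none over all windows for the 20-point setting. Whether the members' counts of bodies and windows in these settings are ordinary is therefore not known. The median low run of 4.0 kb was 2.0 kb under 10%, 7.25 kb under 30%, 3.25 kb with 500 bp windows and 0 kb at the other end. The low depth of sample 2 at CpG-dense start ends limits what could be seen there, and the cause of these shifts was not tested.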
